A study of Homo sapiens with 24 samples.

Results

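The miR-210 hairpin gives 2 mature miRNAs, hsa-miR-210-3p and hsa-miR-210-5p (miR-210-3p and miR-210-5p from here on), and both were followed here in OV90, an established human epithelial ovarian cancer cell line. They were taken by name, as 2 of the 2656 mature miRNAs counted, and both were among the 905 that had enough reads to be tested. The 24 small RNA libraries formed 6 groups of 4 replicates. A doxycycline-inducible shRNA was carried by every group: a negative control (shNeg), one against RELA (shRELA) or one against RELB (shRELB). Each of these was grown as adherent cells and as spheroids, and all groups, controls included, had 1 µg/ml doxycycline for 72 h. Spheroid culture was used to enrich for tumor-initiating cells, and it differed from adherent culture in its plates and in its medium, which held serum replacement and growth factors in place of fetal calf serum, so attachment and medium cannot be told apart. The shNeg libraries are wild type in the labels, and all groups came from 1 cell line. The labels do not say that replicates were separate cultures, so p-values measure only the spread between these libraries, which may be technical.

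miR-210 is known as a miRNA of the low oxygen response: hypoxia-inducible factors (HIF) raise its transcription, and the 3p strand, the one loaded into Argonaute, represses mRNAs such as ISCU, an iron-sulfur cluster scaffold of mitochondria. RELA is the activating subunit of the canonical NF-κB pathway and RELB that of the alternative pathway, and NF-κB signalling is known to feed into HIF1A transcription. The libraries therefore ask whether spheroids carry more miR-210 than adherent cells, and whether its level depends on either subunit. Oxygen was not measured in these files, and miRNA sequencing does not read RELA, RELB or HIF1A mRNA, so neither the silencing nor the state of HIF can be seen in them. The study checked both knockdowns in OV90 cells by Western blot, which these data do not hold.

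The mature strands are printed because the 2 arms differ in seed, in base composition and, as given further on, in abundance. Sequences and positions are from RefSeq on GRCh38.p14, written 5′ to 3′ with the seed, bases 2 to 8, in capitals.
miR-210-3p: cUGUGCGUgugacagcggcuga
miR-210-5p: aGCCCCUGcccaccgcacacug

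Both lie on the minus strand of chromosome 11, miR-210-3p at chr11:568112-568133 and miR-210-5p at chr11:568150-568171. Neither seed was found in another mature miRNA among the 2370 names in the table of sequences. GC made up 63.6% of miR-210-3p and 72.7% of miR-210-5p, against a median of 50% over the 301 tested miRNAs with a known sequence and an average of 10 CPM or more, where CPM is the count scaled to a common library size. The hairpin, which spans 110 bases with the 3p strand in capitals at its bases 66 to 87 and the 5p strand in capitals at its bases 28 to 49, reads as follows.
MIR210 hairpin: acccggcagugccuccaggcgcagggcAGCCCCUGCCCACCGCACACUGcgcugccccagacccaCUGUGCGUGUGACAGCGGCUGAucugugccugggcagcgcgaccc

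It occupies chr11:568089-568198 and lies in the first intron of all 9 annotated transcripts of its long noncoding host gene MIR210HG (chr11:565657-568457). It is 259 bases from the start of that gene, whose position and transcripts are from GENCODE. The window from 250 bases before to 50 bases after the start of MIR210HG held ACGTG at positions -170 to -166 and GCGTG at positions -9 to -5, the core letters that HIF is known to bind, searched on both strands. One or both of these words were in 48.4% of the 35116 promoter windows in the same table. The kappa-B consensus was not in the window, and 11.3% of all windows held it. No neighbour on the chromosome could be compared, since the 4 mature arms of the other hairpins within 1 Mb, MIR6743 and MIR6744, had at most 2 counts in a library and 0 of the 4 were tested.

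Total counts per library were 3797175 to 8283549 in the 3 adherent groups and 959141 to 3580931 in the 3 spheroid groups, so depth moved with culture. One library stood apart: spheroid shNeg replicate 1 had counts for 432 miRNAs at a total of 1220592, while the other spheroid shNeg replicates had counts for 813 to 885. All 6 epithelial marker miRNAs on the list (miR-200a-3p, miR-200b-3p, miR-200c-3p, miR-141-3p, miR-429 and miR-205-5p) had counts in every group. Their summed level per library was 4853 to 5075 CPM in adherent shNeg, 2486 to 3449 in adherent shRELA and 7800 to 9635 in adherent shRELB, and 3222 to 4630, 4489 to 8000 and 7912 to 16340 CPM in the matching spheroid groups, so it moved with the knockdowns and with culture. Most of that sum was miR-200c-3p (465212 counts over all libraries), and miR-205-5p (88032 counts) came next. These did not move together. In spheroids with shNeg, shRELA and shRELB, mean miR-200c-3p was 2035, 5551 and 11730 CPM, and mean miR-205-5p 1973, 990 and 497 CPM. The 11 markers of blood, liver, muscle, neuron, endothelium and mesenchyme summed to 20810 to 38280 CPM in adherent and 14350 to 24750 CPM in spheroid libraries. Nearly all of that was miR-122-5p, known from liver, with up to 177683 counts, and miR-126-3p, known from endothelium, with up to 53342 counts. The blood markers miR-451a, miR-223-3p and miR-142-5p had at most 38, 29 and 2 counts in a library. Their part in the results below was not tested, and in bulk RNA fewer cells of a type and less RNA per cell cannot be told apart.

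miR-210-3p was well measured in every library, with 252 to 1217 counts. Levels are given as CPM scaled by TMM, edgeR's trimmed mean method, which sets libraries to a common level through the bulk of their miRNAs. In adherent shNeg cells, miR-210-3p was at 181, 106, 135 and 119 CPM in replicates 1 to 4. In spheroid shNeg cells it was at 185, 255, 309 and 280 CPM. Every spheroid shNeg library was above every adherent one, although the lowest spheroid library, the replicate 1 that stood apart, was only just above the highest adherent one.

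With shRELA, miR-210-3p was at 162, 163, 104 and 201 CPM in adherent cells and at 277, 172, 199 and 198 CPM in spheroids, and the groups overlapped through the highest adherent library. With shRELB it was at 168, 166, 112 and 138 CPM in adherent cells and at 238, 226, 202 and 244 CPM in spheroids, with no overlap. The 4 shRELB spheroid libraries were the closest together of any group: their coefficient of variation was 8.23%, against 18.3% to 25.6% in the other 5. Counting error alone would give a coefficient of variation of 3.34% to 5.09%, less than the spread seen in every group.

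**Figure D1:**
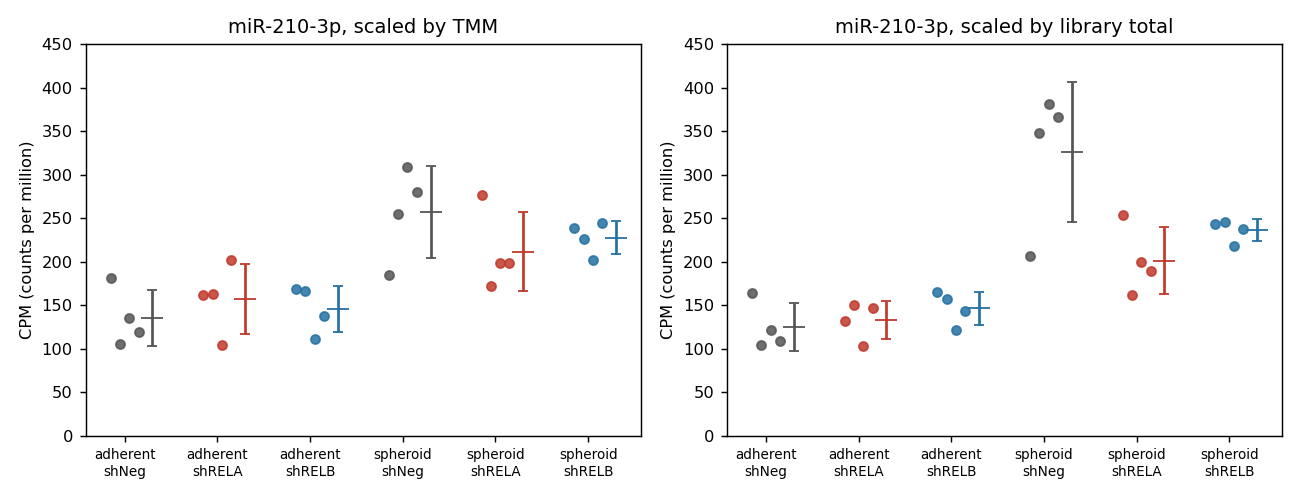
miR-210-3p in each library, in CPM scaled by TMM (left) and by the library total (right). Points are single libraries, and the line with its bar is the mean and SD of the 4 replicates of a group. Spheroid groups sit higher than adherent groups on both scales, and the gap between spheroid shNeg and the other groups is wider when library totals are used.

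Ordered by their means, the levels ran from 135 ± 32.7 CPM (SD, n = 4) in adherent shNeg through 146 ± 26.6 in adherent shRELB, 158 ± 40.3 in adherent shRELA, 212 ± 45.3 in spheroid shRELA and 228 ± 18.7 in spheroid shRELB to 257 ± 53.0 in spheroid shNeg. No step between neighbours in this order passed the test (FDRs of 0.108 to 0.836, edgeR quasi-likelihood), including the step from adherent to spheroid shRELA. miR-210-3p ranked 147 to 151 of the 905 tested miRNAs by mean level in the adherent groups and 117 to 122 in the spheroid groups. It was therefore a moderately abundant miRNA in all 6 groups, with an average of 189 CPM.

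The first question was whether spheroids held more miR-210-3p than adherent cells. With shNeg the level was 1.90-fold higher in spheroids (log2 fold change 0.93, SE 0.22, 95% confidence interval 0.48 to 1.38, FDR 0.000588). A call in this study's terms needs an FDR below 0.01 and a change of more than 2-fold, so miR-210-3p passed on the FDR and fell short on size. In this comparison 42.2% of the tested miRNAs were called, and in 16.9% of them every spheroid shNeg library was above every adherent shNeg one, as for miR-210-3p. The rise of miR-210-3p was at the 66.2 percentile of all log2 fold changes. The median change of all tested miRNAs was -0.26 in this comparison, and miR-210-3p was 1.19 above it on the log2 scale.

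With shRELA the spheroid level was 1.34-fold the adherent one (log2 0.42, SE 0.22, interval -0.02 to 0.87, FDR 0.108), which did not pass, while 32.6% of the tested miRNAs were called. With shRELB it was 1.56-fold (log2 0.64, SE 0.22, interval 0.19 to 1.09, FDR 0.0184), which was not called at the FDR of 0.01, while 25% of miRNAs were. Every shRELB spheroid library was above every shRELB adherent one for 19.2% of miRNAs.

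The size of the miR-210-3p difference depended on the scaling. With median-ratio size factors the shNeg difference was 1.06 on the log2 scale, with library totals 1.38 and after leaving out miRNAs that averaged under 10 CPM 1.30, and each of these was called. Without adherent shNeg replicate 1 it was 1.10, and without spheroid shNeg replicate 1 it was 1.06, also called. Other settings gave smaller values: 0.69 with no filter (FDR 0.0149) and 0.83 with only the groups compared (FDR 0.022), neither of them called.

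The difference between cultures also went with base composition. Across the same 301 miRNAs, the log2 fold change from adherent to spheroid culture went with the GC share of the mature strand, with a Spearman rho of 0.58 for shNeg, 0.49 for shRELA and 0.41 for shRELB. These are descriptions across miRNAs that share libraries and depth. miR-210-3p, at 63.6% GC, was at the 89.4 percentile of these miRNAs for GC. Each library was then corrected by a smooth curve over GC, a step added after the data were seen. The curve was fitted on these 301 miRNAs, to the deviation of the log2 level from each miRNA's own mean over all libraries. With this correction, the spheroid minus adherent change of miR-210-3p was -0.09 for shNeg (SE 0.20, FDR 0.748), -0.14 for shRELA (FDR 0.589) and 0.16 for shRELB (FDR 0.549). By construction this correction takes away any difference that follows GC, whatever its origin, so among miRNAs of like GC the higher level of miR-210-3p in spheroids was not seen.

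**Figure D2:**
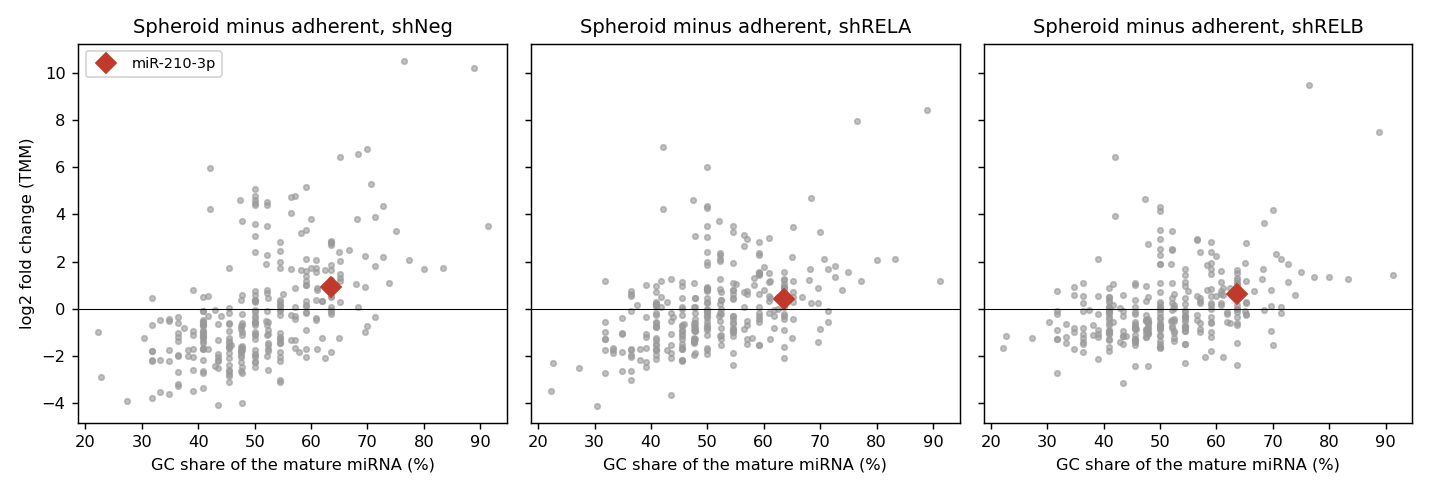
Log2 fold change from adherent to spheroid culture (TMM scaling) against the GC share of the mature miRNA in percent, for shNeg, shRELA and shRELB. Each grey point is 1 of 301 miRNAs averaging 10 CPM or more, and the red diamond is miR-210-3p, which lies within the cloud of miRNAs of similar GC in all 3 panels.

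The second question was whether miR-210-3p depended on RELA or RELB, and neither knockdown changed it past the threshold. The comparisons with shRELA and shRELB share their shNeg libraries. In adherent cells the shRELA level was 1.16-fold the shNeg level (log2 0.22, SE 0.22, interval -0.23 to 0.66, FDR 0.665, with 3.76% of miRNAs called). The adherent shRELB level was 1.08-fold that of shNeg (log2 0.11, SE 0.22, interval -0.34 to 0.55, FDR 0.836, with 7.07% called). All 3 adherent groups overlapped, and the intervals leave out a 2-fold difference either way.

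In spheroids both knockdowns had a lower mean than shNeg, and both overlapped with it. The shRELA level was 0.822-fold the shNeg level (log2 -0.28, SE 0.22, interval -0.73 to 0.17, FDR 0.359, with 15.1% of miRNAs called). The shRELB level was 0.884-fold that of shNeg (log2 -0.18, SE 0.22, interval -0.63 to 0.27, FDR 0.571, with 13.4% called). Library totals gave -0.69 for shRELA in spheroids with an FDR of 0.00979, still under 2-fold, and the GC correction gave -0.02. So the size of the shRELA difference in spheroids rested on the scaling, and it was called under none of those run.

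The knockdowns did not differ detectably from each other. miR-210-3p in shRELA minus shRELB was 0.11 in adherent cells (interval -0.33 to 0.56, FDR 0.788, with 10.9% of miRNAs called) and -0.11 in spheroids (interval -0.55 to 0.34, FDR 0.811, with 6.63% called). In adherent cells this difference changed sign to -0.14 with library totals.

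Whether the difference between cultures was smaller with a knockdown was tested as an interaction of culture and shRNA. For miR-210-3p it was -0.50 on the log2 scale for shRELA against shNeg, and the interval, -1.13 to 0.13, took in 0 (SE 0.31, FDR 0.301, with 7.62% of miRNAs called). It was -0.29 for shRELB (interval -0.92 to 0.34, FDR 0.576, with 8.51% called). The difference between cultures was thus not shown to differ between shNeg and either knockdown. Which shRNAs passed an FDR of 0.01 also rested on the setting. With shRELB the spheroid minus adherent difference passed it with DESeq2 (FDR 0.00309), with library totals (0.00684), with only the groups compared (0.00409), without spheroid shNeg replicate 1 (0.00386) and with miRNAs averaging at least 10 CPM (0.00112). With shRELA it passed in the last of these alone (0.00442). All of these stayed under 2-fold. With shNeg the difference did not pass an FDR of 0.01 with no filter (0.694, FDR 0.0149) or with only the groups compared (0.832, FDR 0.022). The interaction ran from -0.785 with library totals to -0.059 with the GC correction for shRELA, and from -0.693 to 0.25 for shRELB, and it was not called under any setting run.

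**Figure D3:**
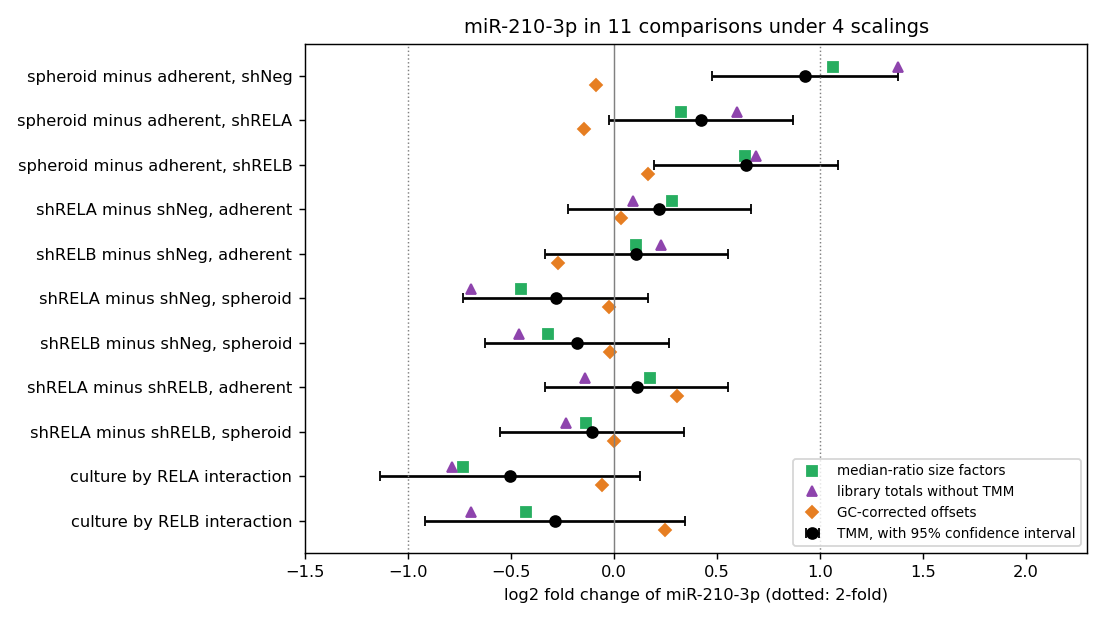
Log2 fold change of miR-210-3p in the 11 comparisons, with the TMM value and its 95% confidence interval in black and 3 other scalings as coloured symbols. Dotted lines mark 2-fold. The spheroid minus adherent values for shNeg run from -0.09 with the GC correction to 1.38 with library totals, and the knockdown comparisons stay between the dotted lines under all 4 scalings.

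A ratio within a library needs no scaling. The reference was miR-30e-5p, which the study used for its quantitative PCR. miR-210-3p stood at 0.107 of miR-30e-5p in adherent shNeg, 0.0934 in adherent shRELA and 0.126 in adherent shRELB as geometric means, and at 0.668, 0.473 and 0.498 in the matching spheroid groups. On the log2 scale the adherent libraries lay between -3.65 and -2.74 and the spheroid libraries between -1.33 and -0.48, so the cultures did not overlap with any of the 3 shRNAs. How many other miRNAs separate in this way against miR-30e-5p was not counted, so the separation is not read as particular to miR-210-3p.

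The ratio of miR-210-3p to miR-30e-5p was higher in spheroids by 6.27-fold with shNeg, 5.06-fold with shRELA and 3.95-fold with shRELB. The reference (hsa-miR-30e-5p) itself fell between cultures, from a mean of 1246 CPM in adherent to 386 CPM in spheroid shNeg cells (log2 -1.69, SE 0.20, FDR 1.06e-08 by edgeR), and with 40.9% GC it is poorer in GC than miR-210-3p. In spheroids the ratio was 0.708-fold the shNeg ratio with shRELA and 0.747-fold with shRELB, and all 4 shNeg libraries (log2 -0.71 to -0.48) were above all libraries of either knockdown (-1.33 to -0.83). Each of these 5 differences had a 2-sided exact permutation p of 0.0286, the smallest that 4 against 4 libraries allow, and 0.0514 after adjustment over the 9 comparisons. For the knockdowns too, the share of all miRNAs whose ratio to miR-30e-5p separates in the same way was not counted. With the mean of miR-16-5p, miR-25-3p and miR-425-5p as the reference, the spheroid minus adherent difference was 2.295 with shNeg, 1.31 with shRELA and 1.41 with shRELB on the log2 scale, and the spheroid knockdown differences were -1.06 for shRELA and -0.44 for shRELB. The references moved too. Mean miR-16-5p was 27910 CPM in adherent and 4479 in spheroid shNeg, and 10580 and 9358 in spheroid shRELA and shRELB. In the same order miR-25-3p was at 11920, 9031, 10010 and 6637 CPM, and miR-425-5p at 1276, 688, 1233 and 763. The miR-30e-5p mean was 442 and 456 CPM in spheroid shRELA and shRELB. On the log2 scale, the miR-30e-5p ratio differed between cultures by 2.648, 2.34 and 1.982 with shNeg, shRELA and shRELB. By edgeR, miR-210-3p changed by 0.927, 0.424 and 0.642, and miR-30e-5p by -1.69, -1.966 and -1.325. The fall of miR-30e-5p was thus the larger part of this difference with each shRNA. For the spheroid knockdown differences and for the other reference, the parts were not separated.

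The other strand was rare. miR-210-5p had 100 counts over the 24 libraries, against 15470 for miR-210-3p, or 155 counts of 3p for each of 5p. Among 214 hairpins with counts for both arms, this imbalance was at the 86.0 percentile, and the median imbalance was 2.97 on the log2 scale against 7.27 for miR-210. The 3p strand was thus the dominant product of the hairpin in every library.

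miR-210-5p counts were 7, 1, 1 and 1 in adherent shNeg, 1, 2, 5 and 2 in adherent shRELA and 5, 9, 7 and 7 in adherent shRELB, in replicate order. In spheroids they were 18, 6, 0 and 1 with shNeg, 2, 1, 3 and 0 with shRELA and 4, 6, 0 and 11 with shRELB. In the spheroid libraries with none, the limit that 3 counts would give is 1.54, 1.14 and 1.40 CPM (shNeg replicate 3, shRELA replicate 4 and shRELB replicate 3). The largest count, 18, came from spheroid shNeg replicate 1, the library with few miRNAs, and the other 23 libraries had at most 11.

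miR-210-5p was called higher in spheroid than adherent shNeg cells (log2 3.19, SE 0.95, FDR 0.00466), although the groups overlapped. That call rested on spheroid shNeg replicate 1: without it the value was 1.73 (SE 1.05, FDR 0.158). It was also lost without adherent shNeg replicate 2, 3 or 4 (2.93 to 3.06, FDRs of 0.0147 to 0.0183) and with the GC correction (0.92, FDR 0.397). In the other 10 comparisons miR-210-5p was not called, with FDRs from 0.0491 for shRELA against shNeg in spheroids to 0.992 for shRELA against shNeg in adherent cells.

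The 5p share of all miR-210 counts was 6.67% (95% exact binomial interval 4.0% to 10.3%) in spheroid shNeg replicate 1. It was at most 1.76% in the other 23 libraries. These intervals cover counting error only. The log2 ratio of 3p to 5p differed between no pair of groups (9 exact permutation tests, adjusted p of 0.257 or more), and means ran from 6.67 in adherent shRELB to 8.33 in adherent shRELA.

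**Figure D4:**
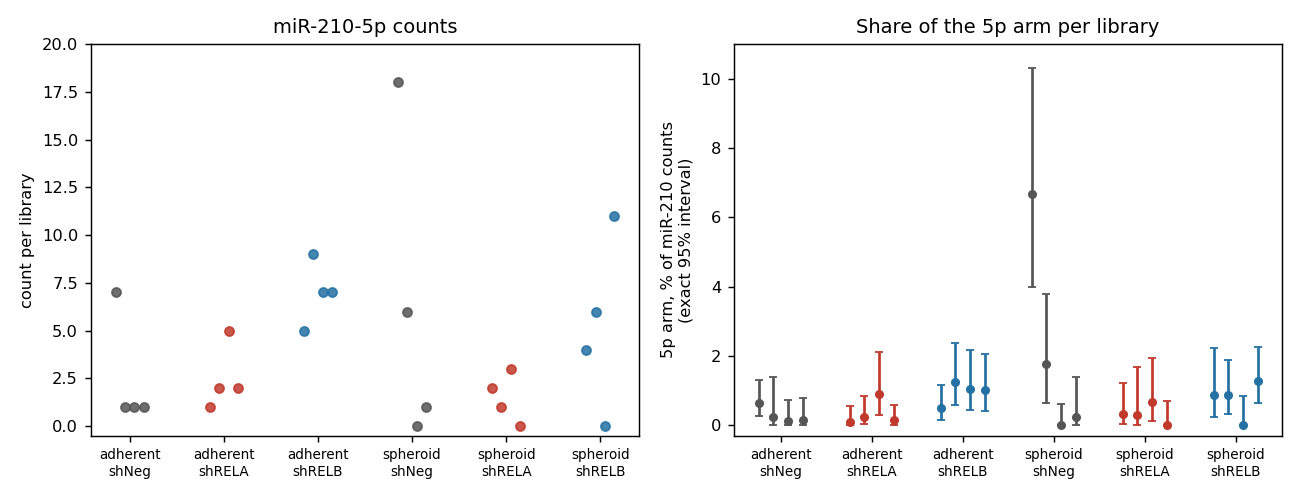
miR-210-5p counts per library (left) and the share of the 5p arm in all miR-210 counts per library in percent, with exact 95% binomial intervals (right). Spheroid shNeg replicate 1 stands out in both panels, with 18 counts and 6.67%.

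miR-210-3p is 1 of many miRNAs tied to low oxygen, and 3 lists of others were set beside it. List A held 17 miRNAs of a signature reported to rise in cancer cells at low oxygen, list B 6 others reported to be raised by HIF or low oxygen, and list C 10 reported to act on HIF1A or on its inhibitor HIF1AN, of which 9 were tested. In spheroid against adherent shNeg cells, 0 of the 17 miRNAs of list A were called higher and 13 lower, where 21.3% of all tested miRNAs were called higher and 20.9% lower. The median of list A was -1.77, against -0.26 for all tested miRNAs. With shRELA 0 were higher and 7 lower, where 16.8% of all miRNAs were called higher and 15.8% lower. With shRELB 0 were higher and 4 lower, where 13.6% were called higher and 11.4% lower. In list A the only positive value with shNeg was that of miR-181a-5p, at 0.58 (FDR 0.0019), which was under 2-fold. Library totals gave 1 higher and 11 lower for list A with shNeg, where 26.3% of all were called higher and 16.2% lower.

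The largest changes in list A were those of miR-106a-5p and miR-26b-5p. miR-106a-5p is nearly identical to miR-17-5p and miR-26b-5p to miR-26a-5p, so how reads were split between them is uncertain. miR-106a-5p fell from 127 ± 3.86 to 7.21 ± 4.17 CPM (SD, n = 4; log2 -4.09, SE 0.33, FDR 2.45e-12) in shNeg spheroids. miR-26b-5p fell from 29780 ± 1852 to 2584 ± 1095 CPM (log2 -3.53, SE 0.25, FDR 6.78e-14). Both were also called lower in spheroids with shRELA and with shRELB, as was miR-23a-3p, which is named here after its values were seen.

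In list B, 0 were called higher and 3 lower in shNeg spheroids, 0 and 2 with shRELA, and 0 and 1 with shRELB. Of all tested miRNAs, 21.3%, 16.8% and 13.6% were called higher and 20.9%, 15.8% and 11.4% lower with shNeg, shRELA and shRELB. miR-424-5p, known to target the HIF-degrading scaffold CUL2, fell from 16.9 to 3.40 CPM (log2 -2.29, FDR 0.00083) with shNeg. miR-145-5p, known from smooth muscle and as a suppressor of growth, fell from 90.0 to 22.3 CPM (log2 -1.999, FDR 3.04e-06). miR-21-5p, an abundant miRNA of tumor cells, was the third, at -1.99, and it was called lower with all 3 shRNAs.

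In list C, 1 was called higher and 6 lower in shNeg spheroids, and 0 and 4 with shRELA and again with shRELB. The shares of all tested miRNAs are those given with list B. The members with the largest change were rare miRNAs: miR-138-5p was at 2.41 to 4.66 CPM in adherent and 0 to 1.40 CPM in spheroid shNeg libraries (FDR 0.00829), and miR-135b-5p at 6.80 to 8.53 and 0 to 1.54 CPM (FDR 1.23e-05). The 1 called higher, miR-199a-5p, was at 0.267 to 0.538 CPM in adherent and 0 to 4.58 CPM in spheroid libraries (FDR 0.00496). Each of these had a group in which no library went over 3 counts, so no fold is given. Of the 32 tested miRNAs in the lists, 0 were called higher with all 3 shRNAs (9.28% of all tested miRNAs were) and 7 were called lower with all 3 (6.96% of all were). The 7 were miR-106a-5p, miR-23a-3p, miR-26b-5p, miR-21-5p, miR-17-5p, miR-18a-5p and miR-20a-5p.

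With the GC correction the counts in shNeg spheroids were 1 higher and 8 lower for list A, 0 and 1 for list B, and 1 and 4 for list C, and the medians were -0.83, -0.24 and -1.10 against 0.05 for all miRNAs. In that fit 19.6% of all tested miRNAs were called higher and 13.4% lower. Without spheroid shNeg replicate 1 the counts were 0 and 12, 0 and 3, and 1 and 5, where 21.3% of all were called higher and 19.2% lower.

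**Figure D5:**
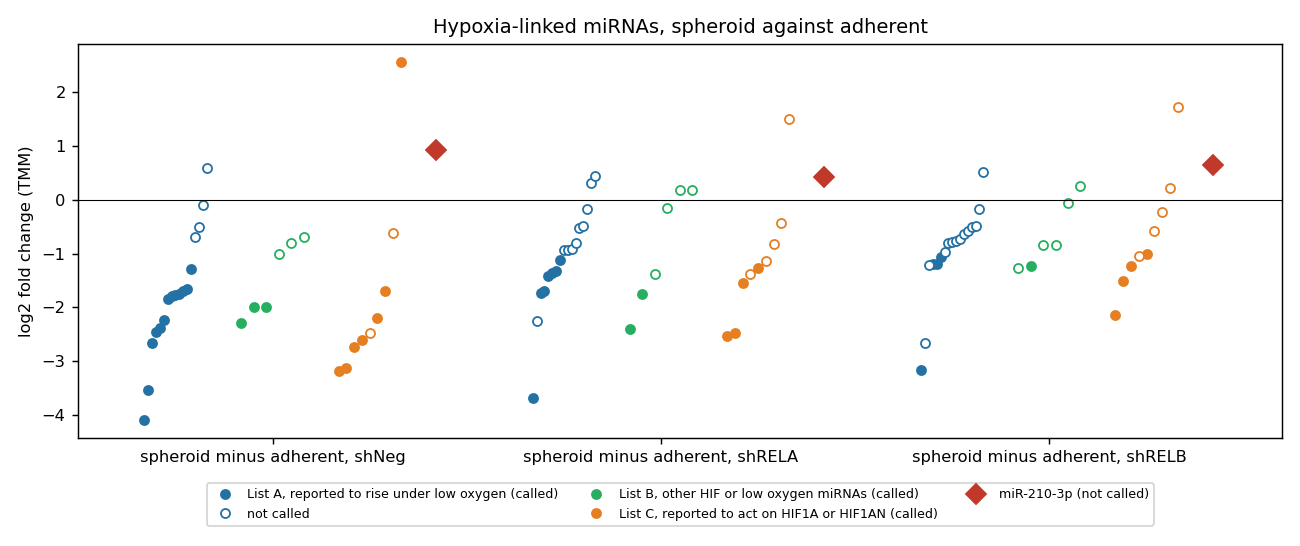
Log2 fold change from adherent to spheroid culture (TMM scaling) for the members of lists A, B and C and for miR-210-3p, in shNeg, shRELA and shRELB cells. Filled points were called and open points were not. miR-210-3p, the red diamond, has a positive value with all 3 shRNAs, while most members of the lists lie below 0.

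The lists were also read in the knockdown comparisons. In spheroids, shRELA gave 3 higher (miR-107, miR-26a-5p and miR-26b-5p) and 1 lower (miR-125b-5p, at -3.45) of list A, where 7.51% of all miRNAs were called higher and 7.62% lower. shRELB gave 2 higher (miR-23a-3p and miR-26b-5p) and 0 lower, where 7.29% of all were higher and 6.08% lower. These list A counts depended on the scaling. For shRELA in spheroids they were 2 higher and 1 lower with median-ratio factors and without spheroid shNeg replicate 1, and 0 and 1 with library totals and with the GC correction. For shRELB they were 1 and 1 with each of these 3 scalings, and 1 and 0 without that library. The shares of all miRNAs moved as well. In those fits of shRELA in spheroids, 2.87% to 6.08% of all were called higher and 6.41% to 12.2% lower. For shRELB in spheroids the shares were 4.42% to 6.96% higher and 5.75% to 8.95% lower. In adherent cells, list A had 1 lower with shRELA (miR-125b-5p, at -5.05) and 2 lower with shRELB (miR-192-5p and miR-23b-3p), where 2.65% and 3.54% of all were called lower and 1.1% and 3.54% higher. miR-155-5p of list B, a miRNA of immune activation whose gene NF-κB is known to regulate, was called higher in all 4 knockdown comparisons, by 2.34 to 3.84 on the log2 scale.

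The other calls in lists B and C are read against the same shares of all miRNAs. In list B, shRELA gave 1 further higher in spheroids (miR-191-5p, at 1.03) and 1 lower in adherent cells (miR-145-5p, at -3.01), and shRELB gave none beside miR-155-5p. With median-ratio factors, library totals, the GC correction or without spheroid shNeg replicate 1, list B had 1 higher and 1 lower for shRELA in spheroids. In list C, miR-135b-5p was called lower with shRELA (-1.51) and higher with shRELB (1.73) in adherent cells. In spheroids miR-17-5p, of the miR-17-92 cluster, was called higher with shRELA (1.78) and shRELB (1.35), and miR-135b-5p was called higher with shRELB, with no fold given because no spheroid shNeg library had over 3 counts. With the GC correction list C had 1 higher in place of 2 for shRELB in spheroids.

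By the Pearson correlation of log2(CPM + 1) over the 24 libraries, the 5 miRNAs of the 334 compared that were most like miR-210-3p were miR-425-3p (r = 0.85), miR-324-3p (0.85), miR-320e (0.81), miR-4485-3p (0.81) and miR-194-3p (0.80). The libraries share groups and depth, so these values are descriptions. With the group means taken out, the correlations were 0.37 to 0.58. miR-210-5p, with a mean of 1.57 CPM, was too rare for such a list.

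All 5 were called higher in shNeg spheroids, which is no independent result because they were picked on the same libraries. miR-425-3p went from 234 to 544 CPM (log2 1.22, SE 0.17, FDR 1.15e-07), and miR-324-3p from 331 to 695 CPM (log2 1.07, SE 0.18, FDR 4.67e-06). Neither was called in shRELA or shRELB cells, where their log2 values were 0.59 to 0.94. Their FDRs there were 2.1e-05 to 0.00815, so they passed on the FDR and fell short on size. The other 3 rose further in shNeg cells, miR-320e by 2.42, miR-194-3p by 2.13 and miR-4485-3p by 3.82 on the log2 scale. miR-4485-3p, whose sequence lies in the mitochondrial ribosomal RNA as well as on chromosome 11, fell with both knockdowns in spheroids (log2 -1.55 with shRELA and -1.94 with shRELB), which miR-210-3p did not at the threshold.

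GC is shown by the strands themselves, given with the seed in capitals for the 2 miRNAs closest to miR-210-3p and for the reference miR-30e-5p.
miR-425-3p: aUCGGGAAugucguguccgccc
miR-324-3p: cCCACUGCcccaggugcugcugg
miR-30e-5p: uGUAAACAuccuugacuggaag

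They lie at chr3:49020159-49020180 on the minus strand, chr17:7223308-7223330 on the minus strand and chr1:40754371-40754392 on the plus strand. miR-425-3p has 63.6% GC, as does miR-210-3p, and miR-324-3p has 73.9%, while miR-320e has 50%, miR-4485-3p 60% and miR-194-3p 59.1%. None of the 5 shares the seed of miR-210-3p.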

How the data were processed

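Small RNA libraries of OV90 cells were prepared by the authors with the QIAseq miRNA kit, trimmed with Cutadapt and assigned to miRBase with miRDeep2 on GRCh38. The deposited values are estimated counts for each mature miRNA. The methods speak of a scaling to CPM, but the values are mostly whole and sum to a different total in each library, so they were taken as unscaled. Whether molecular indices were collapsed is not given in the sources used here. Values that were not whole (3.05% of non-zero values, on 84 miRNAs) were rounded, and 843 of 2656 miRNAs had no count.

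The 905 miRNAs that reached 1 CPM in 4 or more libraries were tested by edgeR 4.0.16 quasi-likelihood with TMM and the 6 groups as the only term, in R 4.3.3. These held at least 99.98% of each library. FDRs are Benjamini-Hochberg over all 905, with calls made at an FDR under 0.01 and over 2-fold change. Ratios within libraries had 0.5 counts added and were tested by 2-sided exact permutation (SciPy 1.17.1). Alternatives were other filters, median-ratio factors, library totals, limma 3.58.1 on log2(CPM + 1), DESeq2 1.42.0, the likelihood ratio test, a replicate block, only the groups compared, an FDR of 0.05, and each library left out. The GC correction was added after the data were seen: 795 of the 905 names matched a RefSeq sequence. The rest were left uncorrected, so shares of all tested miRNAs in that fit mix corrected and uncorrected ones. Rarer miRNAs with a sequence took the curve fitted on those averaging 10 CPM or more. Of the tests, edgeR quasi-likelihood alone was also run on simulated counts. These had a fixed dispersion, no GC trend and no outlying library, so that run cannot speak to either feature of these data. The members, the lists and the tests were chosen with earlier results of these data known. The text names both arms, the reference, by list the 2 called members with the largest change in shNeg spheroids, and the 5 miRNAs nearest in pattern. Raw reads and quantitative PCR were not analysed here.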

Additional observations from a re-analysis of the deposited data

Results flagged for a closer look

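Dixon's test of the highest or lowest library was applied to 54 groups of 4 values, of which chance flags about 5%, and it marked 3. miR-210-5p in adherent shNeg replicate 1 was at 1.16 CPM (7 counts), above the other replicates at 0.172 to 0.267 CPM (1 count each). The log2 ratio of miR-210-3p to miR-210-5p in spheroid shRELB replicate 3, where miR-210-5p had 0 counts, was 9.76 with 0.5 counts added to each arm. miR-194-3p in adherent shNeg had a highest library of 11.4 CPM.

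Neither arm of miR-210 had an interaction of culture and knockdown past the threshold, but 13 of the 78 interactions looked at (39 miRNAs: both arms, the 32 listed and the 5 nearest, with each knockdown) did (edgeR, FDR below 0.01 and over 2-fold). Of all tested miRNAs, 7.62% were called for shRELA and 8.51% for shRELB. The rise or fall from adherent to spheroid culture was more positive with shRELA than with shNeg for miR-125b-5p by 1.60, miR-145-5p by 1.84, miR-17-5p by 1.45, miR-23b-3p by 1.53, miR-26a-5p by 1.33 and miR-26b-5p by 1.80 on the log2 scale. For miR-4485-3p the difference was -2.04. With shRELB the differences were 2.90 for miR-135b-5p, which had at most 3 counts in any spheroid shNeg library, 1.72 for miR-17-5p, 1.30 for miR-192-5p, 1.84 for miR-23b-3p, 1.69 for miR-26a-5p and 2.34 for miR-26b-5p. These calls depended on the scaling. For shRELA the counts called in lists A, B and C were 4, 1 and 1, against 3, 0 and 0 with library totals or median-ratio factors and 1, 0 and 0 with the GC correction. For shRELB they were 4, 0 and 2, against 3, 0 and 1 with library totals, 1 of those 3 being negative, 4, 0 and 2 with median-ratio factors and 2, 0 and 0 with the GC correction. In those other fits, 2.1% to 2.54% of all miRNAs were called positive and 4.09% to 5.52% negative for shRELA. For shRELB the shares were 1.33% to 3.98% positive and 3.98% to 7.96% negative.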

How the results depend on the processing

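For miR-210-3p, 217 of the 231 recomputed values kept their direction and their side of the threshold, 6 newly passed it and 8 changed sign. The shNeg spheroid rise passed the 2-fold limit at 1.06 (median-ratio factors, and DESeq2), 1.30 (mean of at least 10 CPM) and 1.38 (library totals), and ran from 0.83 to 1.10 with each library left out. That rise was smaller than in the main fit, at 0.694 with no filter and 0.832 with only the groups compared. The adherent shRELA minus shRELB difference of miR-210-3p changed sign to -0.007 (mean of at least 10 CPM), -0.14 (library totals) and -0.026 (only the groups compared), and ran from -0.029 to 0.267 with a library left out. With the GC correction, added after the data were seen, signs changed for spheroid minus adherent shNeg (-0.086) and shRELA (-0.14), shRELB minus shNeg in adherent cells (-0.27) and the RELB interaction (0.25). The cause was not tested.

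For miR-210-5p, 12 values changed sign. The shRELA minus shNeg difference in adherent cells became 0.053 (median-ratio factors), 0.036 (limma), 0.084 (DESeq2) and 0.27 (replicate block), and ran from -0.61 to 1.05 with a library left out. With the GC correction the spheroid change was -0.42 with shRELA and -0.56 with shRELB. With a library left out, shRELB minus shNeg in spheroids ran from -1.75 to 0.23 and the shRELB spheroid change from -0.026 to 0.762. The shNeg spheroid call was lost with limma (1.29), only the groups compared (3.05) and the replicate block (3.05), and ran from 1.73 to 4.27 with a library left out.

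Of the ratios, 12 values changed sign, all with a library left out. The miR-30e-5p ratio in spheroid shRELA minus shRELB ran from -0.143 to 0.008. The arm ratio ran from -0.29 to 0.63 for adherent shRELA minus shNeg, -0.78 to 0.23 for the shRELA spheroid change, -0.15 to 1.03 for the shRELB spheroid change and -0.66 to 1.496 for spheroid shRELB minus shNeg.

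Counts of called miRNAs moved by over 1.5 times with a mean of at least 10 CPM (204, 160 and 132 for spheroid minus adherent shNeg, shRELA and shRELB, from 382, 295 and 226, with fewer miRNAs tested). With only the groups compared they were 57 and 124 for adherent shRELA and shRELB (from 34 and 64), 70 and 50 in spheroids (from 137 and 121), 163 for adherent shRELA minus shRELB (from 99) and 43 for the RELA interaction (from 69). Spheroid shRELA minus shRELB had 97 with the likelihood ratio test and without spheroid shNeg replicate 1 (from 60). At an FDR of 0.05 the counts were 153 and 107 for shRELA minus shRELB in adherent and spheroid cells, and 109 and 129 for the interactions. With the GC correction the RELB interaction had 48 (from 77).

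Replicate numbers did not pair the libraries: 8 of 36 same-number pairs correlated above 0.1 (-0.52 to 0.36) and 4 of 24 libraries correlated best with their own number. The replicate block gave 0.96 for the shNeg spheroid rise of miR-210-3p and changed no call of it. Low counts limit miR-210-5p, with 0 to 18 counts a library, while miR-210-3p had 252 to 1217. Whether depth, which moved with culture, affected the miR-210-3p differences through the scaling was not tested.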
